A study of Bos taurus with 6 samples.

Results

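Translation factors are the proteins that load an mRNA onto the ribosome, find its start codon, carry aminoacyl-tRNA and move the ribosome, and release the finished chain. The set described here holds the rows of a deposited expression table of bovine (Bos taurus) oocytes whose human ortholog symbol begins with EIF or EEF and a digit, together with the release factors ETF1 and GSPT1. EIF4E1B, EIF4ENIF1 and the EIF2C genes were left out. This gave 85 of 20707 rows, under 59 symbols.

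The study compared MII oocytes, matured in vitro for 24 hours to metaphase of the second meiotic division, with GV (germinal vesicle) oocytes, arrested in prophase and taken at aspiration. Both came from abattoir ovaries, and RNA was taken from individual oocytes. The table has 3 MII libraries (MII14c, MII15 and MII15c) and 3 GV libraries (GV14, GV14c and GV15), and lists of values below follow that order. No sample title reads MII15c or GV14c, so those 2 columns were placed by the stage in their name alone. The number and the letter in a name are not explained, and no label places the oocytes in separate animals. The p-values therefore rest on how far these few libraries scatter, which may be technical. MII15 stood somewhat apart, with rank correlations over all rows of 0.908 and 0.91 with the other MII libraries, against 0.932 to 0.947 for the other pairs within a stage. Pairs between stages were at 0.868 to 0.92. MII14c was at 0.92, 0.919 and 0.909 with GV14, GV14c and GV15, no lower than with MII15.

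The initiation pathway runs through a few complexes. EIF2 brings initiator tRNA, EIF2B recharges EIF2 with GTP, and EIF3 is the scaffold on the small ribosomal subunit. EIF4F binds the cap through EIF4E, unwinds RNA through EIF4A and joins them on EIF4G. Maturing oocytes of mammals are transcriptionally silent and rely on stored mRNA, so their protein output is set by translation, which in turn needs these factors.

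Values are RPKM, read numbers scaled by the length of the gene model and by the mapped reads of the library. Libraries were primed on poly(A) tails, so the number of transcripts and the capture of their tails cannot be told apart in a level. Depth recovered from the low values was 21.46 to 32.69 M reads in MII and 20.3 to 30.11 M in GV, at which 1 RPKM of a gene model of 2 kb is 42.9 to 65.4 reads in MII and 40.6 to 60.2 in GV. Amplified reads are not independent molecules, and this covers counting error only. All 14 oocyte markers (zona proteins, GDF9, BMP15 and others) had a mean of at least 1 RPKM, with summed levels of 18317 to 30707 RPKM in MII and 15929 to 20149 in GV. Of 14 cumulus and granulosa cell markers, 3 (STAR, HAS2 and VCAN) had a mean of at least 1 RPKM. Summed levels of all markers were 102.8 to 105.4 RPKM in MII and 87.7 to 159 in GV. Single libraries held more of some others: INHBA was at 3.61 and FST at 1.95 RPKM in GV15, and HSD3B1 at 2.02 RPKM in MII15. CYP19A1 was at 0.109 to 0.395 RPKM in every library. FSHR, AMH and INHA were below 0.2 RPKM in each library and LHCGR and PTX3 were listed at 0. Of 5 blood and leukocyte markers, CD3E alone had a mean of at least 1 RPKM (summed 1.45 to 3.78 RPKM in MII and 7.40 to 28.6 in GV), and HBB and CD14 were listed at 0. STAR, HAS2 and VCAN did not overlap between stages. HAS2 was at 55.4 to 64.8 RPKM in MII and 11.6 to 18.9 RPKM in GV. VCAN was at 7.21 to 9.50 RPKM in MII and 2.35 to 3.89 RPKM in GV, and STAR at 29.3 to 39.7 RPKM in MII and 67.1 to 136 RPKM in GV. The part of these cells in the results was not tested.

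Translation factor mRNAs were mostly lower in MII, and a few of the most abundant were higher. Of the 85 rows, 63 had a mean of at least 1 RPKM and were tested, 14 were below that level and 8 were listed at 0 in every library. Among the tested rows, 8 were higher in MII, 32 were lower and 23 did not pass (limma on log2(RPKM + 1), adjusted p under 0.05 over all 8671 rows tested). In all tested rows 13.4% were called higher and 26.9% lower, so the share of factors called higher, 12.7%, lay near that background and the share called lower, 50.8%, above it. The stages did not overlap in 12 member rows with MII above and in 33 with MII below, against 19.8% and 32.1% of all tested rows. The median log2 change, MII minus GV, was -1.04 over tested members and -0.16 over all tested rows. Some lower rows had MII means under 1 RPKM and reached the level tested only through their GV values. They were EIF2B2, EIF2B5, EIF3F, ETF1, EEF2K, EIF5A2 and further rows of EEF1A1. With a mean of at least 5 RPKM required, 7 of 44 members were higher and 23 lower, against 20.5% and 28.7% of all rows tested. That filter also used the mean of both stages, so some lower rows still passed it only through their GV values. Examples are EIF3F (means of 0.334 RPKM in MII and 11.5 in GV) and EEF1D (1.77 and 34.6). Member rows called higher numbered 5 without MII15c, without GV14 or without GV14c, against 6.72%, 8.88% and 11.9% of all tested rows. Without both columns that match no title, 3 rows were higher and 19 lower, against 4.22% and 15.2% of all tested rows.

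The share of the set in the summed RPKM of a library was close to equal at both stages, while its summed RPKM was lower in MII. All members summed to 4999, 5107 and 4946 RPKM in MII libraries, against 5402, 6171 and 5513 RPKM in GV libraries. All members together made up 1.41%, 1.36% and 1.34% of the summed RPKM of the MII libraries, against 1.41%, 1.47% and 1.36% in the GV libraries. The make-up of the sum also differed, since a few abundant members were higher and many others lower. After quantile normalization 12 members were higher and 24 lower, against 23.7% and 21.1% of all tested rows. Lower rows then made up 66.7% of member calls, against 80% as deposited. The median log2 change of members relative to all tested rows was -0.84 after it and -0.88 as deposited.

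**Figure D1:**
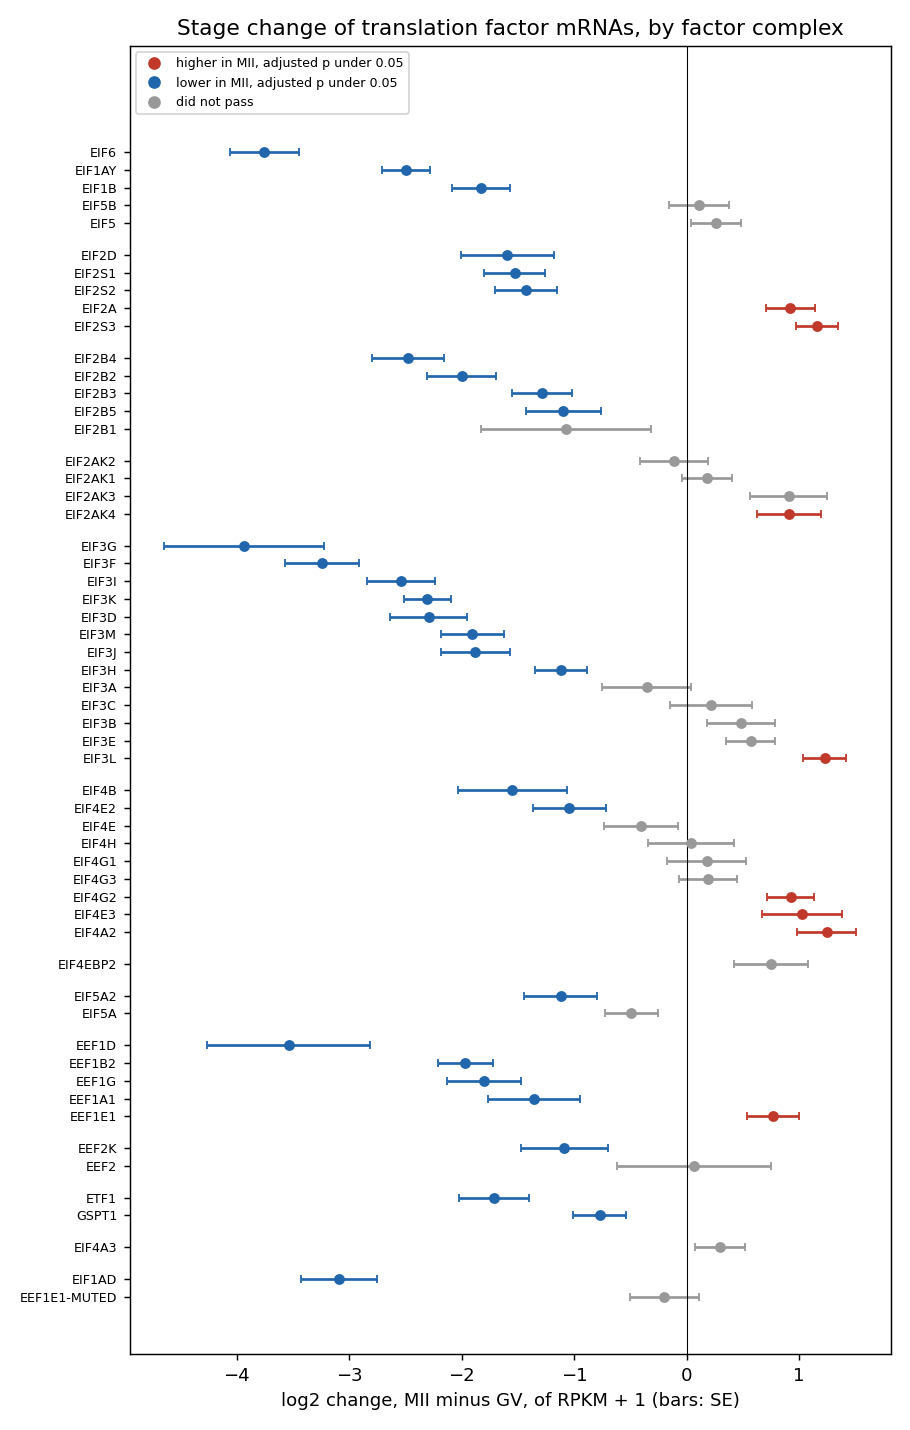
Log2 change (MII minus GV, of RPKM + 1) for the row of highest mean RPKM of each tested symbol, grouped by factor complex, with bars for the SE. EIF2S3 lies to the right of 0 while EIF2S1 and EIF2S2 lie to the left, and in EIF3 the subunits L, E, B and C lie to the right, of which EIF3L alone passed, while the other 9 lie to the left.

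EIF3 showed the widest split within a complex. Of its 13 subunits, all tested, EIF3L was higher in MII, 8 were lower and 4 did not pass. This is 7.69% higher and 61.5% lower, against 13.4% and 26.9% of all tested rows. EIF3L, a non-core subunit bound to EIF3K, was at 892, 1115 and 993 RPKM in MII libraries, against 440, 387 and 450 RPKM in GV libraries (log2 change 1.23 ± 0.19, SE; adjusted p = 0.00134). Every MII library lay above every GV library. EIF3K, its partner in the complex, was at 46.7, 46.2 and 39.8 RPKM in MII, against 181, 249 and 243 RPKM in GV (log2 change -2.30 ± 0.21; adjusted p = 8.33e-05). In the deposited annotation, of a build that is not given in the sources used here, EIF3L spans 110166240 to 110186895 of chromosome 5 (13 coding exons) and EIF3K spans 48648981 to 48661763 of chromosome 18 (8 coding exons).

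The other 7 subunits that fell include peripheral and structural ones. EIF3F, one of a pair of subunits with an MPN domain, was at 0.661, 0.036 and 0.304 RPKM in MII libraries, against 10.6, 14.5 and 9.53 RPKM in GV (log2 change -3.24 ± 0.33; adjusted p = 0.000143). EIF3I, a WD-repeat subunit, was at 78.1, 46.0 and 33.5 RPKM in MII, against 261, 326 and 294 RPKM in GV (log2 change -2.54 ± 0.30; adjusted p = 0.000296). Neither had any overlap between stages. EIF3G, the RNA-binding partner of EIF3I, also fell (log2 change -3.94 ± 0.71) and had a wide spread, with 8.13, 0.279 and 5.58 RPKM in MII against 88.2, 96.0 and 30.8 RPKM in GV (adjusted p = 0.00263). EIF3D, which can bind the cap of some mRNAs, EIF3J, which binds the complex loosely, EIF3M and EIF3H also fell, with log2 changes of -2.29, -1.88, -1.90 and -1.12 (adjusted p = 0.00107, 0.00166, 0.000954 and 0.00539). The call of EIF3H was lost without both columns that match no title (adjusted p = 0.0575).

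The large core subunits EIF3A, EIF3B and EIF3C did not pass. Their MII means were 7.43 ± 3.68, 2.36 ± 0.209 and 27.2 ± 11.3 RPKM, and their GV means 9.19 ± 2.44, 1.43 ± 0.434 and 22.3 ± 5.67 RPKM (SD, n = 3). EIF3B passed as higher with quantile normalization (adjusted p = 0.019). EIF3E, a subunit with a PCI domain, was at 680, 1012 and 766 RPKM in MII, against 494, 525 and 620 RPKM in GV. All MII libraries lay above all GV libraries, yet the change did not pass (log2 change 0.57 ± 0.22; adjusted p = 0.0642). It passed with quantile normalization, TPM scaling, the letter c as a term and library weights (adjusted p = 0.0354, 0.0218, 0.015 and 0.00674).

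**Figure D2:**
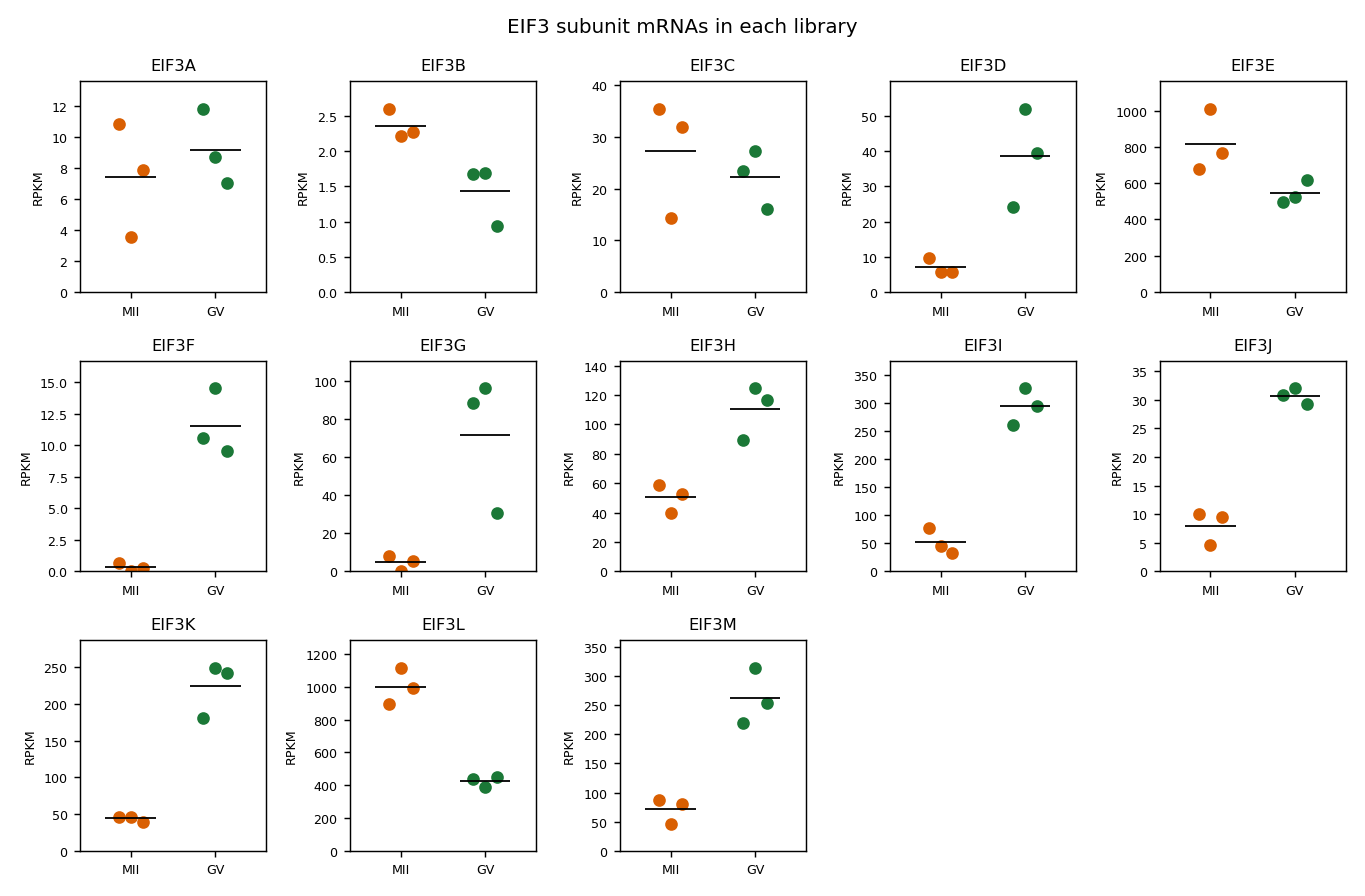
RPKM of the 13 EIF3 subunit mRNAs in each of 3 MII and 3 GV libraries, with a line at the mean of each stage and a vertical axis of its own in each panel. The points for EIF3L are higher in MII (892 to 1115 RPKM) than in GV (387 to 450 RPKM), and those for EIF3K are lower (39.8 to 46.7 against 181 to 249 RPKM).

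Because of this split, the balance of EIF3 subunit mRNAs differed between stages. EIF3E and EIF3L together held 81.8%, 91.1% and 86.7% of the summed EIF3 RPKM in MII libraries, against 49.8%, 42.3% and 50.7% in GV libraries. The other 11 subunits summed to 349, 209 and 269 RPKM in MII, against 941, 1246 and 1041 RPKM in GV. The ratio of EIF3L to EIF3K, which does not depend on the scaling of a library, was 19.1, 24.1 and 24.9 in MII libraries and 2.44, 1.55 and 1.85 in GV libraries. The ratio of EIF3E to EIF3H was 11.6, 25.3 and 14.5 in MII and 5.52, 4.21 and 5.30 in GV. These pairs were chosen after their values were seen and are given as a description.

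The 3 subunits of EIF2 also moved in different directions. EIF2S3, the gamma subunit that binds GTP and initiator tRNA, was at 199, 189 and 205 RPKM in MII libraries, against 79.5, 88.8 and 96.1 RPKM in GV (log2 change 1.16 ± 0.19; adjusted p = 0.00154). EIF2S1, the alpha subunit whose phosphorylation slows initiation, was at 24.2, 12.9 and 15.6 RPKM in MII, against 48.2, 48.1 and 56.8 RPKM in GV (log2 change -1.53 ± 0.27; adjusted p = 0.00234). EIF2S2, the beta subunit, was at 31.9, 16.6 and 27.1 RPKM in MII, against 76.7, 64.0 and 61.9 RPKM in GV (log2 change -1.43 ± 0.27; adjusted p = 0.00349). No EIF2 subunit had overlapping stages, and none lost its call under any alternative.

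Within a library, EIF2S3 was 8.26, 14.6 and 13.2 times the level of EIF2S1 in MII, against 1.65, 1.84 and 1.69 times in GV. It was 6.26, 11.4 and 7.56 times the level of EIF2S2 in MII, against 1.04, 1.39 and 1.55 times in GV. Ratios taken in other complexes overlapped between stages. EIF4A2 to EIF4E was 1.73, 0.772 and 1.43 in MII and 0.219, 0.892 and 0.313 in GV. EEF1A1 to EEF1B2 was 8.60, 3.63 and 8.25 in MII and 2.37, 9.58 and 3.02 in GV. All these ratios are given as a description. The EIF2S3 gene maps to chromosome X (126240578 to 126255102, 12 coding exons). The other 3 rows with its symbol had means of 0.0300 to 0.327 RPKM in MII and 0.0540 to 0.401 RPKM in GV, below the level tested. Of the factors described as other carriers of initiator tRNA, EIF2A was higher in MII (58.4, 70.8 and 52.2 RPKM, against 32.6, 28.0 and 33.5 RPKM in GV; log2 change 0.92 ± 0.22, adjusted p = 0.00965). EIF2D was lower, with 1.12, 0.893 and 2.07 RPKM in MII and 4.17, 11.1 and 4.39 RPKM in GV (log2 change -1.59 ± 0.41; adjusted p = 0.0139). Without both columns that match no title, the adjusted p was 0.0593 for EIF2A and 0.0574 for EIF2D.

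**Figure D3:**
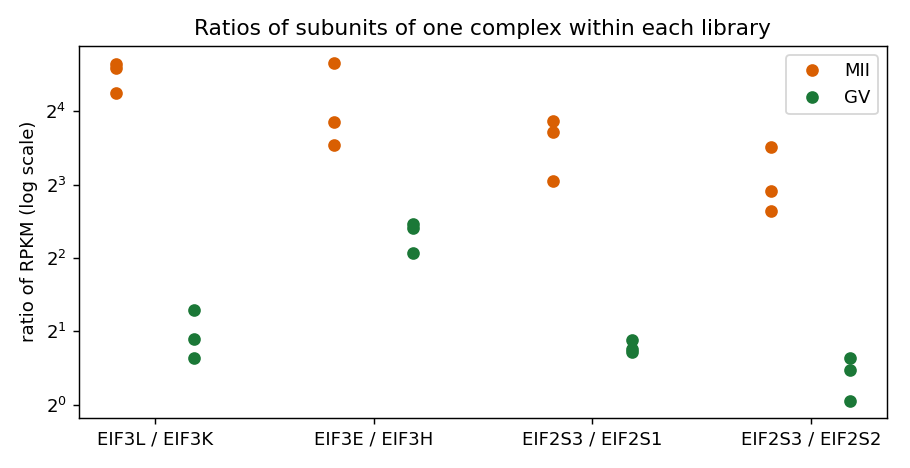
Ratio of the RPKM of 2 subunits of one complex within each library, on a log axis, for 3 MII and 3 GV libraries. Ratios of EIF4A2 to EIF4E and of EEF1A1 to EEF1B2, which overlapped between stages, are not drawn. The ratio of EIF3L to EIF3K is 19.1 to 24.9 in MII and 1.55 to 2.44 in GV, and that of EIF2S3 to EIF2S1 is 8.26 to 14.6 in MII and 1.65 to 1.84 in GV.

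EIF2B, the exchange factor of EIF2, was lower in 4 of its 5 subunits, against 26.9% of all tested rows. Of these, EIF2B2 and EIF2B5 reached the level tested only through their GV values. EIF2B4 (delta), part of the regulatory core of EIF2B, was at 8.61, 3.59 and 6.51 RPKM in MII libraries, against 34.7, 44.7 and 33.9 RPKM in GV (log2 change -2.47 ± 0.32; adjusted p = 0.000494). EIF2B2 (beta) was at 0.331, 0 and 0.198 RPKM in MII, against 4.67, 3.52 and 2.99 RPKM in GV (log2 change -2.00 ± 0.30; adjusted p = 0.00116). EIF2B3 (gamma) was at 9.73, 9.75 and 6.32 RPKM in MII, against 22.2, 23.0 and 21.0 RPKM in GV (log2 change -1.29 ± 0.26; adjusted p = 0.00476). None of these overlapped between stages, and EIF2B3 lost its call only without both columns that match no title (adjusted p = 0.0632).

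EIF2B5 (epsilon), which carries the catalytic activity, was low at both stages, 0.387 ± 0.173 RPKM in MII and 2.04 ± 0.947 RPKM in GV (SD, n = 3; log2 change -1.10, adjusted p = 0.0268). Its adjusted p was 0.0551, 0.0608, 0.0697 and 0.0743 without MII14c, MII15, MII15c or GV14, and 0.0856 with quantile normalization. EIF2B1 (alpha) was at 24.5, 2.15 and 19.7 RPKM in MII and 20.1, 48.0 and 13.9 RPKM in GV, with overlapping stages (adjusted p = 0.286).

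The kinases that phosphorylate EIF2S1 did not follow EIF2B. EIF2AK4 (GCN2), which senses uncharged tRNA, was at 8.37, 10.2 and 10.6 RPKM in MII libraries, against 3.74, 5.08 and 5.42 RPKM in GV (log2 change 0.91 ± 0.28; adjusted p = 0.0309). The adjusted p was 0.112, 0.118, 0.0528 and 0.0554 without MII15c, GV14, GV14c or GV15, and 0.167 without both columns that match no title. EIF2AK3 (PERK), which responds to stress of the endoplasmic reticulum, was at 6.66, 8.17 and 5.09 RPKM in MII, against 2.21, 2.54 and 4.72 RPKM in GV (log2 change 0.91 ± 0.34; adjusted p = 0.0616). It passed without GV15 (adjusted p = 0.0406), and with median-ratio scaling, quantile normalization, TPM scaling, the letter c as a term and library weights (0.0378, 0.0237, 0.0436, 0.0224 and 0.0178). The stages did not overlap in either kinase. EIF2AK1, the heme-regulated kinase and the most abundant of the 4, was at 36.1, 41.8 and 31.1 RPKM in MII and 28.5, 31.6 and 35.4 RPKM in GV (adjusted p = 0.555). EIF2AK2 (PKR), activated by double-stranded RNA, was at 0.743, 0.836 and 1.16 RPKM in MII and 0.609, 1.39 and 1.27 RPKM in GV (adjusted p = 0.79).

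**Figure D4:**
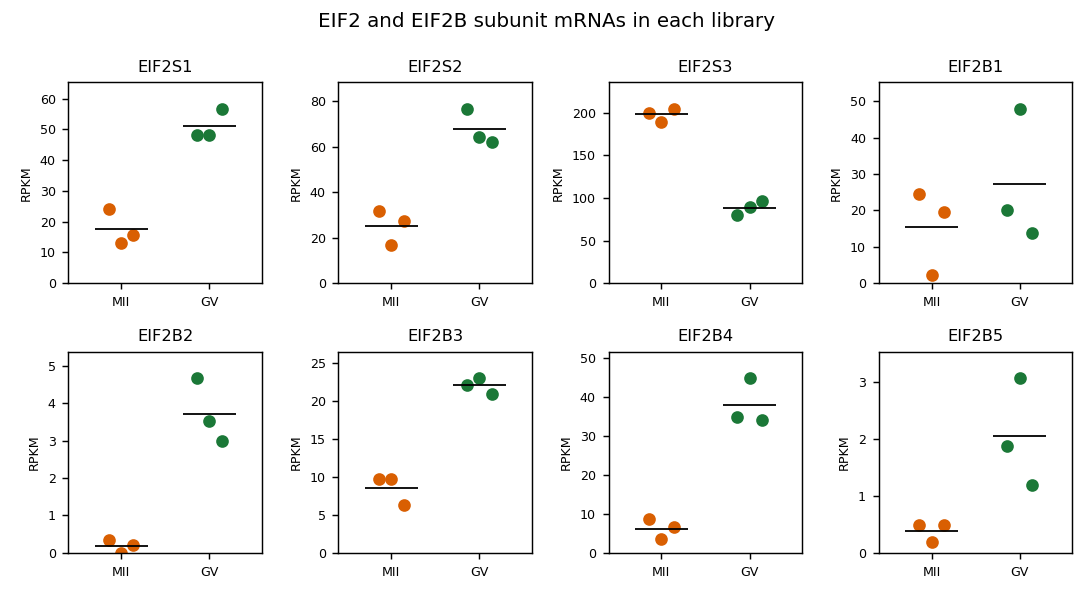
RPKM of the mRNAs of 3 EIF2 and 5 EIF2B subunits in each of 3 MII and 3 GV libraries, with a line at the mean of each stage and a vertical axis of its own in each panel. EIF2S3 is higher in MII (189 to 205 RPKM against 79.5 to 96.1 RPKM in GV), and EIF2S1, EIF2S2 and 4 EIF2B subunits are lower.

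Factors of scanning, start-site choice and subunit joining fell steeply or did not pass. EIF6, which keeps the large ribosomal subunit from joining too early, was at 19.7, 8.01 and 15.2 RPKM in MII libraries, against 179, 203 and 201 RPKM in GV (log2 change -3.75 ± 0.31; adjusted p = 4.65e-05). The row with the symbol EIF1AY, which lies on chromosome X and encodes an EIF1A protein of scanning, was at 21.4, 23.2 and 18.1 RPKM in MII, against 107, 129 and 131 RPKM in GV (log2 change -2.50 ± 0.21; adjusted p = 5.74e-05). EIF1B, a close relative of the start-codon gatekeeper EIF1, was at 21.4, 23.2 and 17.0 RPKM in MII, against 64.5, 102 and 63.7 RPKM in GV (log2 change -1.83 ± 0.26; adjusted p = 0.000822). These 3 kept their call under every alternative run. The row EIF1 itself, a factor that all cells use, is listed at 0 in all 6 libraries and has no coding feature in the annotation.

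The other factors of this step did not pass. EIF5B, the GTPase of subunit joining, was the most abundant of them in MII, at 203, 113 and 217 RPKM, against 167, 163 and 146 RPKM in GV (adjusted p = 0.771). EIF5, the GTPase-activating protein of EIF2, was at 136 ± 4.51 RPKM in MII and 116 ± 27.9 RPKM in GV (SD, n = 3; adjusted p = 0.386). A further row with the symbol EIF5 is an rRNA transcript in the annotation and was below the level tested.

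Of 11 tested rows for EIF4F and its cofactors, 3 were higher, 2 lower and 6 did not pass. This is 27.3% higher and 18.2% lower, against 13.4% and 26.9% of all tested rows. EIF4A2, an RNA helicase of the complex, was at 683, 543 and 639 RPKM in MII libraries, against 195, 373 and 244 RPKM in GV (log2 change 1.24 ± 0.26; adjusted p = 0.00529), and kept its call under all alternatives. EIF4G2, an EIF4G relative without the region that binds EIF4E, was at 344, 281 and 325 RPKM in MII, against 183, 186 and 135 RPKM in GV (log2 change 0.92 ± 0.21; adjusted p = 0.0078, and 0.0562 without both columns that match no title). Stages did not overlap in either. The 2 scaffolds that do bind EIF4E were far below EIF4G2 per length. EIF4G1 was at 1.36 ± 0.727 RPKM in MII and 1.05 ± 0.464 RPKM in GV, and EIF4G3 at 11.2 ± 1.54 RPKM in MII and 9.64 ± 0.925 RPKM in GV (SD, n = 3), and neither passed (adjusted p = 0.712 and 0.587).

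EIF4E, the cap-binding protein and the most abundant member of this complex in GV, was at 395, 703 and 447 RPKM in MII libraries and 891, 418 and 779 RPKM in GV libraries. The stages overlapped, and it did not pass (log2 change -0.41 ± 0.33; adjusted p = 0.352), though it did as lower with library weights (adjusted p = 0.00402). Of its relatives, EIF4E2, which binds the cap without joining EIF4G1, was lower (3.76, 1.995 and 3.88 RPKM in MII, against 6.32, 8.81 and 7.49 RPKM in GV; log2 change -1.04 ± 0.32, adjusted p = 0.0295). EIF4E3, an atypical cap binder, was at 3.53, 7.17 and 3.87 RPKM in MII, against 2.65, 1.28 and 1.57 RPKM in GV (log2 change 1.03 ± 0.36; adjusted p = 0.0468). Both calls lay close to the threshold. EIF4E2 gave 0.0537, 0.0578, 0.0615, 0.0837 and 0.074 without MII15, MII15c, GV14, GV14c or GV15. EIF4E3 gave adjusted p-values of 0.0526 to 0.125 when any 1 library was left out. Without both columns that match no title, the adjusted p was 0.139 for EIF4E2 and 0.194 for EIF4E3.

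EIF4B and EIF4H stimulate the helicase. EIF4B was lower, with 8.68, 1.46 and 5.21 RPKM in MII and 12.1, 20.4 and 12.3 RPKM in GV (adjusted p = 0.0312, and 0.0668, 0.064, 0.0977 and 0.0518 without MII15c, GV14, GV14c or GV15). Its adjusted p was 0.162 without both columns that match no title. EIF4H was at 7.75 ± 2.58 RPKM in MII and 7.66 ± 3.13 RPKM in GV (SD, n = 3; adjusted p = 0.944). The inhibitors of EIF4E were low: EIF4EBP2 was at 2.33, 2.03 and 3.09 RPKM in MII, against 0.689, 1.79 and 0.84 RPKM in GV (log2 change 0.75; adjusted p = 0.0969, and 0.0323, 0.00917 and 0.00143 with median-ratio scaling, quantile normalization and library weights), and EIF4EBP1 at 0.478, 0 and 0.152 RPKM in MII and 0.621, 3.5 and 0.123 RPKM in GV was below the level tested. EIF4A3, a helicase related to EIF4A2 that marks exon junctions and is not part of EIF4F, was at 163, 122 and 114 RPKM in MII and 98.4, 127 and 98.1 RPKM in GV (adjusted p = 0.322).

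The elongation factors EEF1A1, EEF1B2, EEF1D and EEF1G were lower in their row of highest mean RPKM. EEF1E1, which belongs to a different complex despite its symbol, was higher. EEF1B2, an exchange factor of EEF1A, was at 41.8, 39.9 and 38.7 RPKM in MII libraries, against 195, 114 and 184 RPKM in GV (log2 change -1.97 ± 0.24; adjusted p = 0.00041). EEF1G, its partner subunit, was at 35.4, 19.9 and 22.6 RPKM in MII, against 81.6, 139 and 64.4 RPKM in GV (log2 change -1.80 ± 0.33; adjusted p = 0.00287). EEF1D, a further exchange factor, was at 4.07, 0.207 and 1.04 RPKM in MII, against 31.8, 63.7 and 8.18 RPKM in GV (log2 change -3.54 ± 0.72; adjusted p = 0.00481). Its 3 GV libraries spread widely but stayed above all MII libraries, and without both columns that match no title its adjusted p was 0.0571.

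EEF1A1, which carries aminoacyl-tRNA to the ribosome, was at 359, 145 and 320 RPKM in MII libraries, against 462, 1096 and 554 RPKM in GV (log2 change -1.36 ± 0.41; adjusted p = 0.0267). The adjusted p was 0.0645 without MII15, 0.0767 without GV14c and 0.11 without both columns that match no title. This row holds 97.0% to 98.7% of the RPKM summed over the 14 rows with its symbol in MII and 96.7% to 98.6% in GV, and spans 13233837 to 13235959 of chromosome 9 (7 coding exons). Of the other 13 rows, 5 were tested, and 3 of these were called lower, at 0.628 to 1.14 RPKM in MII and 2.47 to 4.56 RPKM in GV. Each of the 3 lost its call when any 1 of 4 or 5 of the 6 libraries was left out, MII15c and GV14 among them for each (adjusted p = 0.0844 to 0.115 without MII15c and 0.0542 to 0.119 without GV14). Reads may be shared between such copies, so their values are uncertain. Both rows with the symbol EEF1A2 were listed at 0. EEF1E1, a subunit of the aminoacyl-tRNA synthetase complex, was at 54.7, 83.7 and 64.2 RPKM in MII, against 38.6, 34.9 and 42.8 RPKM in GV (log2 change 0.77 ± 0.23; adjusted p = 0.0267, and 0.0564, 0.0759, 0.0741 and 0.0651 without MII15, MII15c, GV14 or GV14c). Its adjusted p was 0.151 without both columns that match no title. A row with the symbol EEF1E1-MUTED, which the annotation names MUTED alone, was at 11.2, 6.68 and 9.69 RPKM in MII and 11.6, 7.85 and 12.5 RPKM in GV, with overlapping stages (adjusted p = 0.638).

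Translocation and release factors had low levels per length, apart from GSPT1. EEF2, the GTPase that moves the ribosome, was at 10.7, 1.21 and 8.47 RPKM in MII libraries and 3.15, 12.5 and 2.81 RPKM in GV libraries, with overlapping stages (log2 change 0.07 ± 0.69; adjusted p = 0.946). With library weights it passed as higher (adjusted p = 0.0385), and its direction turned when MII14c, MII15c, GV14 or GV15 was left out. EEF2K, the kinase that inhibits EEF2, was at 1.03, 0 and 0.456 RPKM in MII, against 2.47, 2.97 and 1.07 RPKM in GV (adjusted p = 0.049, and 0.124, 0.119, 0.145 and 0.13 without MII15, MII15c, GV14 or GV14c). Its adjusted p was 0.253 without both columns that match no title. Both release factors were lower. ETF1, which reads stop codons, was at 1.08, 1.03 and 0.785 RPKM in MII, against 5.81, 3.99 and 6.82 RPKM in GV (log2 change -1.71 ± 0.31; adjusted p = 0.00277). GSPT1, its GTPase partner, was at 28.2, 21.0 and 21.3 RPKM in MII, against 38.2, 36.7 and 47.4 RPKM in GV (log2 change -0.77 ± 0.23; adjusted p = 0.0273). GSPT1 did not pass without MII15c, GV14 or GV15 (adjusted p = 0.1, 0.0662 and 0.106), nor without both columns that match no title (0.128). It also did not pass with median-ratio scaling, quantile normalization or TPM scaling (0.155, 0.0919 and 0.0671).

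EIF5A, which carries hypusine and helps the ribosome past difficult stretches and at stop codons, was at 73.0, 82.9 and 65.2 RPKM in MII libraries and 136, 98.8 and 82.7 RPKM in GV libraries. The stages overlapped and it did not pass (adjusted p = 0.13), though it did as lower with library weights (adjusted p = 0.0023). Its paralog EIF5A2 was at 0.7, 0.054 and 0.633 RPKM in MII, against 2.18, 1.57 and 2.66 RPKM in GV (adjusted p = 0.0235, and 0.0562, 0.0553, 0.0746 and 0.0654 without MII15, MII15c, GV14 or GV15). For EIF5A2 the adjusted p was 0.0742 without both columns that match no title. EIF1AD, a protein named for its EIF1A domain, was at 10.8, 12.5 and 4.87 RPKM in MII, against 69.8, 102 and 78.7 RPKM in GV (log2 change -3.09 ± 0.34; adjusted p = 0.000208).

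Partners of these factors that carry other names were mostly not called. Of 39 such genes found in the table, 34 were tested, 5 were higher, 5 lower and 24 did not pass, so that 14.7% were called in each direction, against 13.4% higher and 26.9% lower in all tested rows. Their median log2 change was -0.13. DHPS, the enzyme that starts the hypusine modification of EIF5A, was at 24.3, 31.6 and 23.9 RPKM in MII libraries, against 362, 283 and 367 RPKM in GV (log2 change -3.62 ± 0.22; adjusted p = 1.54e-05). PAIP2, an inhibitor of poly(A)-binding protein, was at 4.55 ± 3.59 RPKM in MII and 71.2 ± 38.2 RPKM in GV (SD, n = 3; log2 change -3.87), and MCTS1, which acts with DENR in ribosome recycling, at 1.31 ± 1.27 RPKM in MII and 12.5 ± 1.02 RPKM in GV (-2.72; adjusted p = 0.0013 for PAIP2 and 0.00178 for MCTS1). HBS1L, a GTPase of ribosome rescue, DDX3X, a helicase of initiation, and PPP1R15B, which recruits a phosphatase to EIF2S1, were higher, with log2 changes of 0.91, 1.34 and 1.30 (adjusted p = 0.00715, 0.00818 and 0.0091).

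Some factor mRNAs are known in mammals to begin with a terminal oligopyrimidine tract, the element through which mTOR controls translation. The list used here holds EEF1A1, EEF1A2, EEF1B2, EEF1D, EEF1G, EEF2, EIF3E, EIF3F, EIF3H and EIF4B. It was chosen with earlier results of these data known and may leave out further such factors, so its counts hold for this list alone. All but EEF1A2 were tested, and 7 of 9 were lower and none was higher, against 26.9% lower and 13.4% higher in all tested rows (median log2 change -1.55). EEF2 and EIF3E did not pass, and EIF3E passed as higher under the 4 alternatives given above. Of the lower ones, EIF3F reached the level tested only through its GV values. EEF1A1, EEF1D, EIF3H and EIF4B lost their calls without both columns that match no title (adjusted p = 0.11, 0.0571, 0.0575 and 0.162). With 1 row per symbol, the other 47 tested factors had 8 higher, 22 lower and a median of -0.49, and the median over all tested rows was -0.16. The difference between these lists was not tested.

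Members with shorter coding sequences had lower log2 changes. Across the 59 of 63 tested members with a coding annotation, Spearman's rho between coding length and log2 change was 0.37, and it was 0.29 across 8469 of all tested rows. The median coding length was 1557 nt for members called higher and 1059 nt for members called lower, against 1530 and 945 nt in all tested rows. RPKM divides by the length of the gene model, and genes are not independent replicates, so these are descriptions.

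Some members differed by the letter in the library name, in shares near those of all tested rows. With the letter c as a term beside the stage, 5 of 63 tested members were higher in the libraries whose name ends in c and 1 was lower, against 5.73% and 1.56% of all tested rows. The 5 were EEF2, EIF2B1, EEF1A1, EIF3G and EIF4B (c-minus-other log2 differences of 2.01, 2.17, 1.17, 1.73 and 1.18; adjusted p = 0.00459, 0.00459, 0.00597, 0.0387 and 0.0482). EIF4E was the member that was lower (-0.87; adjusted p = 0.0231). MII15 is the only MII library and GV14c the only GV library on its side of this contrast, so in each stage 1 library sets it. With that term EIF2B1 passed as lower in MII (adjusted p = 0.000786).

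**Figure D5:**
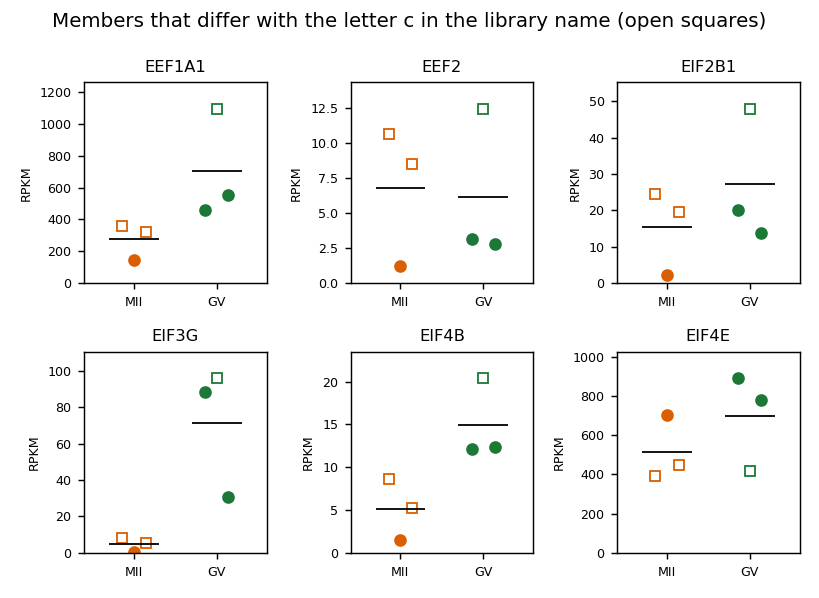
RPKM of 6 members in 3 MII and 3 GV libraries, with open squares for libraries whose name ends in c, filled circles for the others and a line at the mean of each stage. EEF2 is at 8.47 to 12.5 RPKM in the open squares of both stages and at 1.21 to 3.15 RPKM in the filled circles, and EIF4E runs the other way, at 395 to 447 RPKM in the open squares and 703 to 891 RPKM in the filled circles.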

How the data were processed

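Individual oocytes were sequenced as single Illumina reads from amplified cDNA, per the labels. Per the file headers, the authors deposited RPKM of 6 libraries for 20707 genes with Ensembl identifiers, and a second file of gene coordinates. The submitters' processing notes name DESeq. The aligner, the counting tool and the build were not given in the sources used here. For libraries that match a title, the labels give more dilute adapters for MII than for GV, and this difference and the stage cannot be told apart.

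Rows with a mean of at least 1 RPKM were tested with limma 3.58.1 in R 4.3.3 (lmFit, eBayes with a trend) on log2(RPKM + 1). The contrast was MII minus GV, and p-values were adjusted over all 8671 rows by the Benjamini-Hochberg method. Every log2 change is on that scale and understates changes of low genes. Depth is the value that made low RPKM of 3555 models of coding sequence alone whole reads (91.9% to 96.6% within 0.1 of a read). The members and lists were chosen with earlier results of these data known. In each complex, values of every library are given for up to 3 rows of smallest p and the most abundant row. Further members are given so after their values were seen. Up to 6 partners are named by smallest p. No sequence is printed.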

Additional observations from a re-analysis of the deposited data

How the results depend on the processing

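Of 8 members higher in MII, 3 kept that call under all alternatives run, as did 18 of 32 lower members. With the number 14 or 15 as a replicate block, 5 members were higher and 30 lower, against 13.2% and 24.6% of all tested rows. EEF1E1, EEF2K, EIF2AK4, EIF4E2 and EIF4E3 did not pass with this block (adjusted p = 0.0564, 0.0757, 0.0596, 0.0503 and 0.074). The numbers were not treated as pairing the libraries, since their meaning is not stated and deviations of same-numbered libraries did not correlate alike. Libraries with the same number and letter had the highest values between stages, 0.33 for MII14c with GV14c and 0.427 for MII15 with GV15. With the number alone shared, MII14c with GV14 was at -0.00826 and MII15c with GV15 at -0.23. With the letter alone shared, MII15c with GV14c was at 0.261. A pairing by full name was not tested. Library weights gave 13 higher and 35 lower, against 26.1% and 37.1% of all tested rows. Leaving out both columns that match no title gave 3 higher and 19 lower, against 4.22% and 15.2%. Leaving out 1 library gave 5 to 7 higher and 23 to 29 lower, against 6.72% to 15.2% and 20.0% to 25.8%. Other settings, with 44 to 77 members tested, gave 7 to 12 higher and 23 to 33 lower. In all tested rows these settings gave 5.79% to 23.7% higher and 14.6% to 34.3% lower. The median change of members relative to all rows was -0.88 as deposited and -0.87, -0.84 and -0.92 after median-ratio, quantile and TPM scaling, and -0.33 with no filter on low values, -0.61 without MII15, -0.65 with weights and -0.67 with the block.

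Among 554 values of 35 named members, 46 lost a call, 12 gained one and 11 turned round, none of which passed before or after. EEF1E1-MUTED changed by 0.0497 and 0.14 after median-ratio and quantile scaling. EEF2 changed by -0.603 with the letter c, and EIF5B by -0.0496 with the letter c and -0.0414 without both columns. Leaving out 1 library gave -0.384 to 0.816 for EEF2 and -0.0619 to 0.405 for EIF5B. The causes were not tested. Counting error limits rows near 1 RPKM most.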

Other observations

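The deposited annotation, extended by the authors with transcripts found in their reads, adds predicted mRNA forms at 40 of the 69 member rows that have a coding feature. EIF5B has the most, 12, EIF3H has 7, and EIF3E and EIF4E have 4 each. The levels used above are per gene and do not separate these forms. The other 16 member rows have no coding feature. They are EIF1 and further rows of symbols that have several, such as EEF1A1.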
